A study of Homo sapiens with 18 samples.

Results

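Noncoding transcripts that lie inside a protein-coding gene, on the opposite strand and clear of every coding exon, were examined in extracellular vesicles (EVs) and cells of HEK293T, a human embryonic kidney cell line. Of 203027 transcripts in the table, 3234 met the rule: they come from a noncoding gene of GENCODE 29 (types lincRNA, miRNA, processed pseudogene, snoRNA and scaRNA left out), have a spliced length of at least 200 nt, lie wholly within the body of a coding gene on the other strand, and share no base with an exon of any coding gene. They belong to 2251 genes and face 1740 coding genes, here called hosts, of which 1196 hold only 1 such transcript. The rule used no measured value.

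The study asked how the LC3 conjugation machinery bears on what is loaded into EVs. Its 18 libraries fall into 6 groups of 3 that the labels call biological replicates: EVs and cells of wild-type HEK293T, of ATG7-/- cells (clone F2) and of ATG12-/- cells (clone D9). Cells of every group had been kept without serum for 24 h, so there is no group with serum to compare. Each knockout is 1 clone, so the genotype and the clone cannot be told apart. Nothing in the labels says whether the replicates were separate cultures, and p-values measure the spread between these libraries. Total RNA, called large RNA in the sample titles, was made into strand-keeping libraries with 22 PCR cycles and read as single 50-base reads. The titles give no size limit for it.

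As background, ATG7 is the enzyme that activates both ATG12 and the LC3 family, and ATG12, joined to ATG5, directs LC3 onto membranes. Antisense transcripts can pair with or interfere with the pre-mRNA across from them, and those that face only introns meet the host RNA before splicing. Introns also hold many copies of small RNA genes. The SRP RNA (7SL) is the scaffold of the signal recognition particle, which takes ribosomes to the endoplasmic reticulum, and Alu repeats descend from it. 7SK RNA holds the elongation kinase P-TEFb inactive in the nucleus. Both RNAs have left many gene copies and pseudogenes across the genome, some of them opposite an intron.

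The 4 members of highest mean level over the 18 libraries were RN7SL1, RN7SKP80, AC005884.2 and AL356737.1, and RN7SKP80 and AC005884.2 are shown first as examples of members that resemble another gene. Sequences are from GENCODE 29 on GRCh38, 5′ to 3′. Capitals mark bases inside a 50-base window, the read length, that occurs unchanged on either strand in a transcript of another gene, so that a read from there cannot be placed by sequence alone.
RN7SKP80, intron of SERHL2, 1 exon, chr22:42565048-42565330, minus strand: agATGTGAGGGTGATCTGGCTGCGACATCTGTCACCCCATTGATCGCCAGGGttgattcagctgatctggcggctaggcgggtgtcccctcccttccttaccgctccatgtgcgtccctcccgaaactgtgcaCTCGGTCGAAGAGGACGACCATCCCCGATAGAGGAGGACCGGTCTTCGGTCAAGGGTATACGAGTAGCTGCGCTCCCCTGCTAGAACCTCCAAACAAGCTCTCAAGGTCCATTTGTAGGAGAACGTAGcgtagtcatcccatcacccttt
AC005884.2, intron of BCAS3, 2 exons spliced, chr17:61069856-61070356, minus strand: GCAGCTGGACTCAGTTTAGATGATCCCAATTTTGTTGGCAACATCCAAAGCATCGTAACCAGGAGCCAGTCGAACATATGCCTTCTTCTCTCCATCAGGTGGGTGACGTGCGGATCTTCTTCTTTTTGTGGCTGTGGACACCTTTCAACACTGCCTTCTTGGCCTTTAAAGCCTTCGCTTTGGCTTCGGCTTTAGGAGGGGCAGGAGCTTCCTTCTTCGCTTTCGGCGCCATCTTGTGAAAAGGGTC
All bases of RN7SL1 and of AL356737.1 lie in shared windows. RN7SL1 is an active SRP RNA gene of 299 nt and aligned to its partner gene RN7SL2 at 98.7% identity. It was identical over all 299 nt to part of the noncoding gene AL139099.4, on the same strand. AL139099.4 read 0 in EVs and 26.6 ± 79.7 TPM in cells. The shared windows of RN7SL1 thus include that annotation, and its share of windows without it was not tested. RN7SKP80 aligned to RN7SK, the 7SK RNA gene, at 96.3% over 269 nt, with 34.2% of its windows shared. AC005884.2 aligned at 98.8% over 247 nt to the intergenic transcript AC112491.1. It also aligned at 99.3% over 151 nt to the reverse strand of RPL23A, a ribosomal protein mRNA.

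A further 3 members are shown because their levels differed between genotypes, and because none of them shares a 50-base window with another gene, so all their letters are small.
RN7SKP67, a 7SK copy in an intron of TENM3, 1 exon, chr4:182631454-182631688, minus strand: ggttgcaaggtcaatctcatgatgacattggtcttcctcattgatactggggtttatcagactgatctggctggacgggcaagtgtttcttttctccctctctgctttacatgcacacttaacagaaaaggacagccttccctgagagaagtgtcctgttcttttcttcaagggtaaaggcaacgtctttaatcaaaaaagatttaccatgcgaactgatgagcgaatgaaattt
AL445933.2, intron of HIVEP3, 2 exons spliced, chr1:41535443-41535868, plus strand: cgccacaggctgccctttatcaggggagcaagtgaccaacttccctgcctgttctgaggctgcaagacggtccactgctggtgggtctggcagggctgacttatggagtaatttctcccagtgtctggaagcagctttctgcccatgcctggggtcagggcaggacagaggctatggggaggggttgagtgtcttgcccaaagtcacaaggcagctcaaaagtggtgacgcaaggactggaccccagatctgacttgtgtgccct
SCAANT1, first intron of ATXN7, 1 exon, chr3:63911518-63911772, minus strand: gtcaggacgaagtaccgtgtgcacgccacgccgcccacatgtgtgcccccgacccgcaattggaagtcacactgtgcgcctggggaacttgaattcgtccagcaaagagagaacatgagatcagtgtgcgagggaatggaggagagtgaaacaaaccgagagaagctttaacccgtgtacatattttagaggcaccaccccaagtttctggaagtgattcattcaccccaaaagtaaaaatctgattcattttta
RF00017.173, an SRP RNA copy in an intron of MRPS31 whose level also differed, shares no such window either. SCAANT1 was named for its place opposite ATXN7, a subunit of a chromatin-modifying complex.

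Levels are in TPM, the share of a library's transcript molecules that the authors' quantification gave to each transcript, corrected for length. Each library sums to the same total, so a member's fewer molecules and a rise of other RNA cannot be told apart, and the number of reads behind a value is unknown. The deposited table holds no strand setting. Across the table, the 50 transcripts of highest level opposite coding exons were all above the sum of their facing coding gene, in EVs and in cells, though they were picked for a high level. Of the tested members, 329 of 1433 (23.0%) were above their host's sum in EVs and 719 (50.2%) in cells. If strand had been set the other way, a member's value would count RNA of the other strand, from the host intron or from a gene it mirrors elsewhere, and this was not tested. The sum of a host or other coding gene would likewise count RNA from across its exons, so every host level given here carries the same limit.

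Libraries were checked by marker genes. Over the 9 neural and embryonic kidney genes that mark HEK293T the summed level was 16.1 to 55.3 TPM in cells and 24.2 to 155 in EVs, and NEFL and IGF2BP1 were above 0 in all 18 libraries. Over 6 genes of other cell types it was 4.62 to 19.7 and 1.27 to 20.6 TPM, mostly COL1A1, with HBB and ALB at 0 throughout. ATG7 was not lower in the libraries labelled ATG7-/-, at 8.06, 11.2 and 12.9 TPM in those cells against 8.14, 11.1 and 13.1 in wild type. ATG12 read 0, 0.858 and 0 TPM in ATG12-/- EVs against 0.844, 9.54 and 22.6 in wild-type EVs, and 6.71, 9.18 and 5.18 against 10.1, 7.61 and 13.5 in cells. RNA of a disrupted gene can persist, so the ATG7 levels do not check the labels.

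Of the 3234 members, 2163 were above 0 in at least 1 library, 1071 were at 0 in all 18, and 49 were above 0 in all 18. An EV library held 336 to 456 members above 0 and a cell library 972 to 1443. Over all transcripts the same counts ran from 24209 to 31213 in EVs and from 37301 to 49040 in cells. Members seen in cells but in no EV library numbered 1013, and 47 were seen in EVs but in no cell library. The filter of at least 1 TPM in at least 3 libraries kept 1433 for testing in the 18 libraries.

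Of each library's TPM, members took up 6.58% to 9.67% in EVs and 5.67% to 8.26% in cells. Their summed level in EVs was 89250.3 ± 6951 TPM (SD, n = 3) in wild type, 67875 ± 1947 in ATG7-/- and 84549.9 ± 761 in ATG12-/-. In cells it was 72541 ± 8729, 62182 ± 4734 and 60376 ± 3556 TPM. The 3 ATG7-/- EV libraries, at 65818 to 69689 TPM, lay below the other 6 EV libraries, at 83001 to 96737. In cells the knockout libraries, at 56664 to 67056 TPM, overlapped with wild type, at 66635 to 82567. The EV mean of 80558 ± 10383 TPM (n = 9) was above the cell mean of 65033 ± 7754, but without RN7SL1, the highest member, the means were 44478.5 and 53086. No test is given for these sums.

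**Figure D1:**
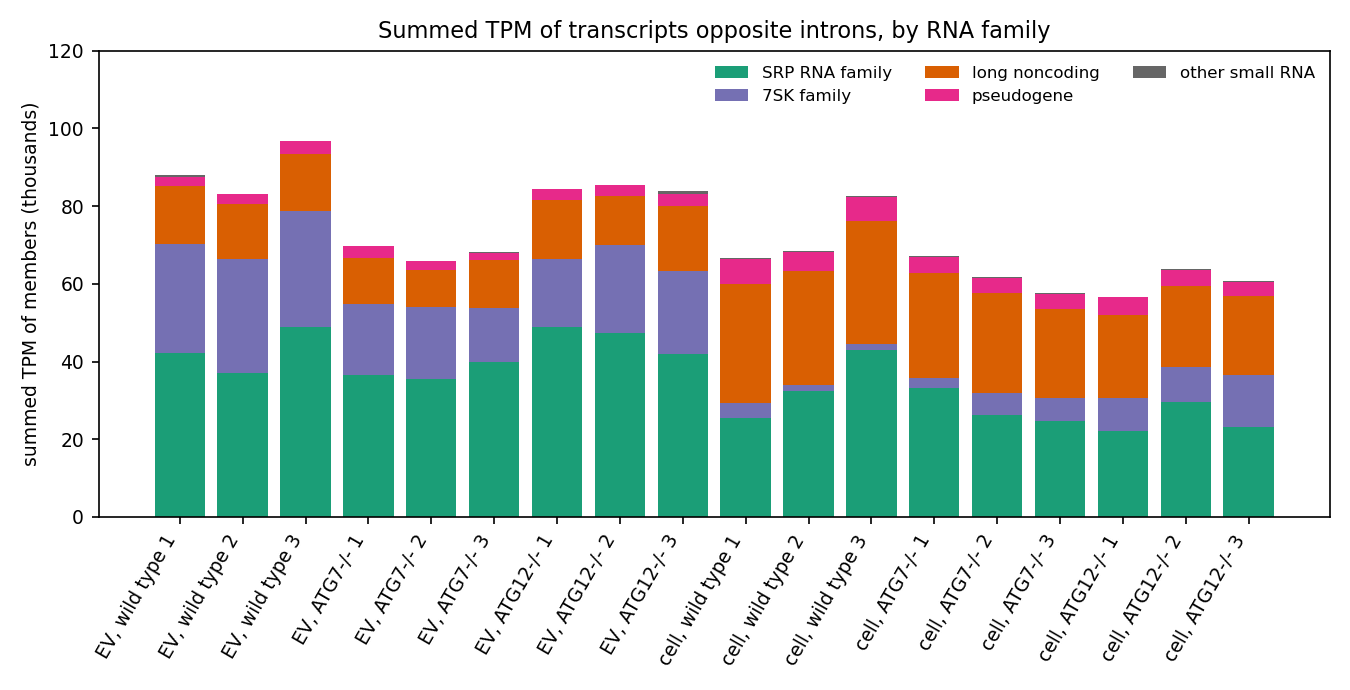
Summed TPM of members (vertical axis, from 0, in the unit on its label) in each of the 18 libraries (horizontal axis), stacked by RNA family. The 7SK layer is thick in EVs (28963 ± 992 TPM in wild type) and thin in wild-type cells (2239 ± 1345 TPM), and the long noncoding layer is thicker in cells.

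By family, the plot of summed levels shows the SRP and 7SK sums ahead in EVs, each through 1 member, and the long noncoding sum ahead in cells. The 138 SRP RNA family members made 42039 ± 5298 TPM in EVs (n = 9) and 28894 ± 6574 in cells, 52.2% and 44.4% of the member signal. The 48 members of the 7SK family made 22117 ± 5687 and 5731 ± 3971 TPM, or 27.5% and 8.81%. Without RN7SL1 the SRP sum was 5959 ± 829 TPM in EVs and 16947 ± 7920 in cells, and without RN7SKP80 the 7SK sum was 102 ± 75.6 and 256 ± 119. Most tested members of both families had a lower fitted level in wild-type EVs than in cells: 100 of 108 SRP members (median −2.92, 33 called lower and 1 higher) and 20 of 23 of the 7SK family (median −2.89, 5 called lower and 1 higher). The lower calls were 30.6% and 21.7% of those tested, no more than the 31.8% of all members, beside 13.0% of all transcripts. The higher calls were 0.93% and 4.35%, beside 0.21% of all members and 2.58% of all transcripts. The 2721 long noncoding members, most of them annotated antisense RNAs, made 13599 ± 2098 TPM in EVs and 25542 ± 4357 in cells. A further 319 pseudogene members made 2659 ± 498 and 4687 ± 1045 TPM, and 8 other small RNAs under 700.0 TPM in any library. Of all member TPM, RN7SL1 alone held 33.0%, RN7SL1 and RN7SKP80 together 51.9%, and the 12 members of highest level 77.1%.

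The signal lay mostly in members whose sequence is also held, in part or whole, by another annotated gene. Only 631 members (19.5%) have a 50-base window found in another gene, 553 of them on the same strand and 78 only on the reverse, but those 631 held between 93.8% and 96.7% of member TPM in EV libraries and between 84.1% and 90.6% in cells. All 12 of the highest members and 45 of the highest 50 are among them. The 2603 members with no such window summed to 3398 ± 881 TPM in EVs and 7521 ± 1771 in cells (n = 9), 3469 ± 636, 2681 ± 525 and 4045 ± 1009 in wild-type, ATG7-/- and ATG12-/- EVs and 9515 ± 1418, 6740.4 ± 1059 and 6307 ± 569 in the cells. Each EV library lay below each cell library, the highest EV value being 5207 and the lowest cell value 5695 TPM. The whole set was therefore higher in EVs by its sum and the unshared members were higher in cells. The EV excess of the sum rests on RN7SL1, without which it was 44478.5 TPM in EVs and 53086 in cells. Taken singly, shared and unshared members both leaned lower in wild-type EVs. Of 427 tested with a shared window 34.0% were called lower (median −1.74), and of 1006 without one 30.9% (median −1.64). Over all transcripts 13.0% were called lower. How a quantifier divides reads among near-identical genes can move these levels, and its part in them was not tested.

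By length, most of the summed level lay in short members. The class of 250 to 299 nt summed to 65416.5 TPM in EVs and 37391.5 in cells. Much of this was RN7SL1 (299 nt, mean 36080 TPM in EVs and 11947 in cells) and RN7SKP80 (283 nt, 22015 and 5475). The class of 200 to 249 nt was higher in cells, at 10593 and 17582 TPM. The 232 members of 250 to 299 nt held 81.2% of member TPM in EVs and 57.5% in cells, and the 78 of 200 to 249 nt another 13.2% and 27.0%. Members of at least 1000 nt, 544 in number, held 0.58% and 1.65%. At the length limit, the shortest members with a value were AC106870.1 in ALK (200 nt, mean 133 TPM in EVs and 241 in cells), ADAMTS7P3 and AC008067.1 (both 203 nt, at 0 in EVs, 5.84 and 7.74 in cells). Just outside it stood RNU2-51P, AC103794.1 and AC010761.6, all of 197 nt. AC010761.6 read 542 TPM in EVs and 814 in cells. In all, 869 transcripts failed on length alone and summed to 8448 ± 2464 TPM in EVs and 30785 ± 6522 in cells.

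The Alu letters TAATCCCAG, searched on both strands, were in 340 members (10.5%) against 9.23% of all 194625 transcripts of at least 200 nt, 16.7% of the 1702 noncoding transcripts inside introns on the coding strand and 14.1% of the 5821 that face a coding exon. They were in 19.0% of the 1433 tested members, in 2.71% of those at 0 in all libraries and in 25 of the 50 highest. The polyadenylation letters AATAAA on the transcript's own strand, within its last 50 bases, were in 27.5% of members, against 25.6% of all, 22.8% and 26.9%. These shares describe letters, not working sites.

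**Figure D2:**
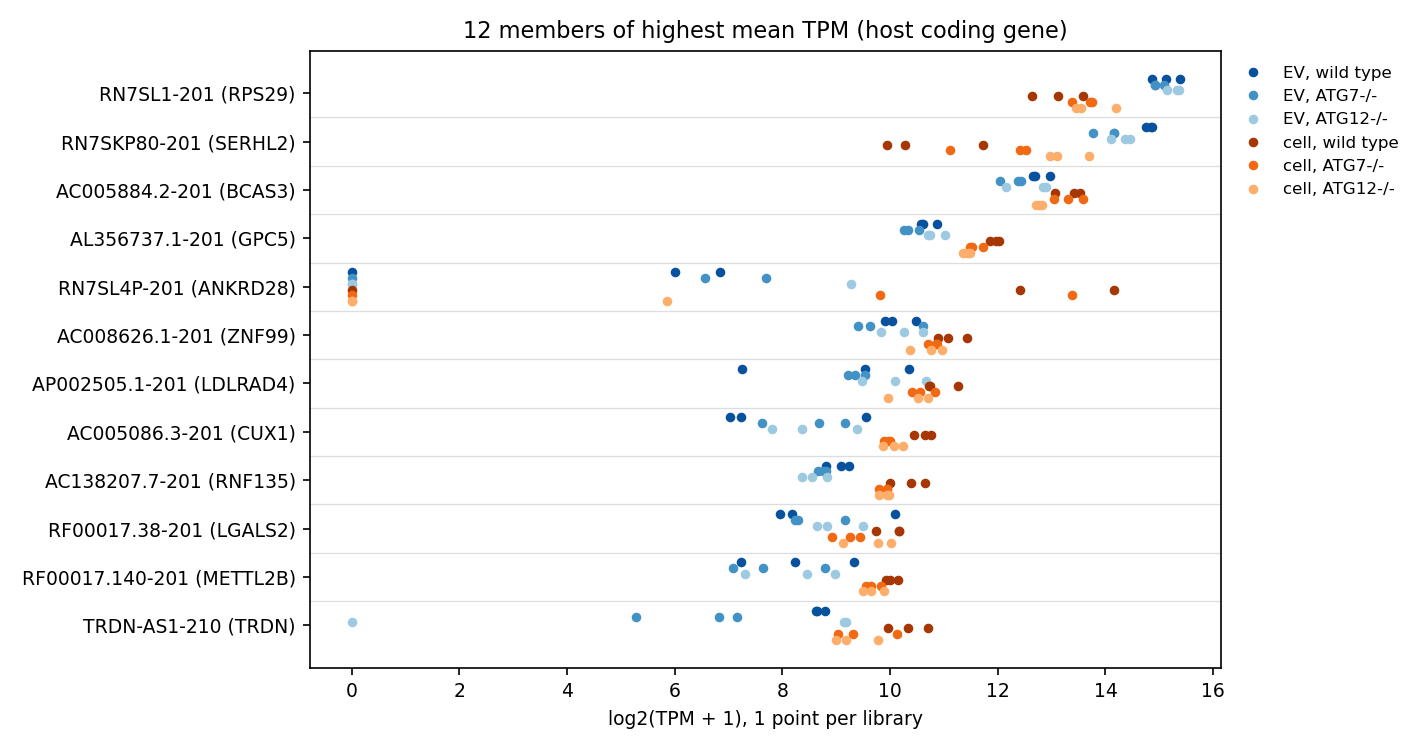
Log2(TPM + 1) (horizontal axis) of the 12 members of highest mean TPM (rows, host gene in brackets), 1 point per library, coloured by group; points at 0 are libraries with no signal. All EV points of RN7SL1 and RN7SKP80 lie to the right of their cell points, all EV points of AL356737.1 and AC138207.7 to the left, and RN7SL4P is scattered.

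RN7SL1 faces the first intron of RPS29, a gene for a small-subunit ribosomal protein, 101 nt from its nearest exon. It read 35876, 29889.7 and 42535 TPM in wild-type EVs, 30944, 30944 and 34926 in ATG7-/- EVs and 42449, 41000.2 and 36156 in ATG12-/- EVs. In cells it read 6394, 12314 and 8885 in wild type, 10645, 13460.5 and 13867 in ATG7-/- and 11289.7, 18667 and 12000.4 in ATG12-/-. Every EV library was above every cell library. On the log2(TPM + 1) scale used for all tests here, EVs exceeded their cells by 1.66 in wild type, 1.26 in ATG7-/- and 1.56 in ATG12-/- (SE 0.20, limma adjusted p = 0.000152, 0.00227 and 0.000443). The host RPS29 was at group means of 17.5 to 35.4 TPM in EVs and 9.34 to 15.3 in cells.

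RN7SL2, which lies outside the set, read 54344 ± 4249 TPM in wild-type EVs, 44160.3 ± 5467 in ATG7-/- EVs and 30298 ± 2796 in ATG12-/- EVs. As a share of the pair, RN7SL1 held 39.8% ± 5.59, 42.3% ± 1.29 and 56.8% ± 1.96 in those EVs, and 42.9% ± 10.8, 45.9% ± 2.54 and 54.8% ± 7.99 in cells. The share in ATG12-/- EVs lay above that of the other 6 EV libraries. The pair summed to 90443.8 ± 4690 TPM in wild-type EVs and 21393 ± 3358 in wild-type cells.

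RN7SKP80 lies opposite an intron of SERHL2, a serine hydrolase-like gene, and is annotated as a 7SK pseudogene. Its wild-type EV libraries read 27779, 29295 and 29673 TPM, those of ATG7-/- 18182, 18286 and 13902, and those of ATG12-/- 17547, 22358 and 21112. Wild-type cells read 3398, 1239.6 and 984, ATG7-/- cells 2228, 5457 and 5899.7, and ATG12-/- cells 8048, 8825 and 13195. Both knockout EV groups lay below wild type without overlap, and ATG12-/- cells lay above wild-type cells. In ATG7-/- EVs it fell by 0.77 on the log2 scale (SE 0.11, limma adjusted p = 0.0466). Without any 1 of the 6 EV libraries of those groups the adjusted p was 0.11 to 0.197, so this call rests on all of them. It also missed the threshold without the filter on low values (0.141) and with sample weights in place of the trend (0.763). In ATG12-/- EVs the difference was −0.50 (adjusted p = 0.171). In cells it was 1.47 (adjusted p = 0.336) for ATG7-/- and 2.70, SE 0.52 (adjusted p = 0.105), for ATG12-/-.

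EVs exceeded cells for RN7SKP80 by 3.82 log2 units in wild type (SE 0.39, limma adjusted p = 2.35e-05) and by 1.91 in ATG7-/- (adjusted p = 0.00974). In ATG12-/- the difference was 1.06 (adjusted p = 0.128). RN7SK itself read 20660.5 ± 2827, 9463 ± 999.9 and 10813 ± 1085 TPM in the 3 EV groups and 5934 ± 1894, 8828 ± 572 and 7118 ± 1758 in cells. RN7SKP80 as a share of RN7SKP80 and RN7SK was 58.5% ± 2.69, 63.9% ± 1.13 and 65.2% ± 1.59 in EVs. In cells it was 23.7% ± 14.7, 32.7% ± 9.75 and 58.4% ± 0.956. The division between these near-identical genes therefore differed between wild-type and ATG12-/- cells more than within either group.

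AC005884.2 is spliced from 2 exons opposite an intron of BCAS3, a gene linked to autophagosome sites and cell movement. It read 6417, 6613 and 8008 TPM in wild-type EVs, 5286, 4211 and 5519 in ATG7-/- and 7325, 4554 and 7661 in ATG12-/-. The cells read 8577, 11808 and 10875, then 10112, 12296 and 8424, then 6965, 7215 and 6679. It was lower in EVs than in cells in wild type and in ATG7-/-, without overlap in either. Those differences were −0.91 and −1.12 log2 units, SE 0.18 (limma adjusted p = 0.00415 and 0.00214), and in ATG12-/- the difference was −0.12 (adjusted p = 0.733). Its near copy AC112491.1 read 7025 ± 1164 TPM in EVs and 21327 ± 7349 in cells (n = 9), and RPL23A, whose reverse strand it resembles, 29.5 ± 14.6 and 14.0 ± 3.97. If strand had been set the other way, AC005884.2 would count RPL23A RNA, and this was not tested.

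AL356737.1 lies opposite an intron of GPC5, a cell-surface proteoglycan gene whose own level was at most 0.789 TPM as a group mean, and 207054 nt from its nearest exon. It holds the Alu letters and has 100% of its windows shared on the same strand. Its sequence aligned to 12270 genes and was identical over all 234 nt to part of CHST12. The levels given here for AL356737.1 therefore cannot be assigned to this locus by sequence. Wild-type EVs read 1529, 1861 and 1560.5 TPM, ATG7-/- EVs 1486, 1228 and 1293, and ATG12-/- EVs 1677, 1704 and 2082. Wild-type cells read 4020.2, 3718 and 4187, ATG7-/- cells 2853, 3374 and 2936, and ATG12-/- cells 2616, 2796 and 2853. Every EV library lay below every cell library. The EV to cell differences were −1.62, −1.29 and −0.59 (SE 0.12, limma adjusted p = 7.39e-07, 9.2e-06 and 0.00938).

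Of the other 8 members among the highest 12, AC138207.7 faces RNF135, a ubiquitin ligase gene. It aligned at 98.5% over 669 nt to the reverse strand of METTL21A. Its EVs read 448 ± 83.9 TPM and its cells 1078 ± 238 (n = 9), with EV to cell differences of −1.64, −1.24 and −1.32 in wild type, ATG7-/- and ATG12-/- (SE 0.19, limma adjusted p = 8.86e-05, 0.00149 and 0.00102). RN7SL4P, an SRP RNA copy in ANKRD28, read 0 to 616 TPM in EVs, but 0, 5486 and 18249 in wild-type cells, 10714, 896 and 0 in ATG7-/- cells and 0, 56.7 and 0 in ATG12-/- cells. Replicates of 1 group thus ran from 0 to 18249 TPM. It aligned to RN7SL2 at 98.3% over 235 of its 295 nt. The other 6 (AC008626.1 in ZNF99, AP002505.1 in LDLRAD4, AC005086.3 in CUX1, RF00017.38 in LGALS2, RF00017.140 in METTL2B and TRDN-AS1 in TRDN) had means of 297 to 1131 TPM in EVs and 824 to 1921 in cells. Of these, AC005086.3, facing the gene of a homeobox factor, read 381 ± 234 in EVs and 1214 ± 301 in cells. TRDN-AS1 read 297 ± 226 and 911 ± 398 TPM although its host TRDN, a muscle calcium-release gene, was at 0 in every group.

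Of the 12 members of highest mean level without a shared window, picked after seeing the data, 8 had a higher mean in cells and 4 in EVs. They were led by AL353662.3 in an intron of UBAP1, a subunit of the ESCRT machinery. It read 439 ± 160 TPM in EVs (163 to 647) and 334 ± 146 in cells (186 to 664, n = 9). AC103591.3, facing the chaperone gene DNAJB4, read 0 to 769 TPM in EVs and 0 to 538 in cells. AC005086.4 in CUX1 read 188 ± 110 and 92.2 ± 48.7 TPM. AC015849.3, facing TAF15, a gene for an RNA-binding protein of the FET family, was almost equal at 71.3 ± 37.3 and 70.2 ± 18.3 TPM. AC005034.2 in GCFC2 read 16.0 ± 11.5 and 82.7 ± 21.5 TPM, its highest EV library (31.1) below its lowest cell library (43.3), and was lower in ATG12-/- EVs (limma adjusted p = 0.0127). The SRP RNA copy RF00017.123 in PPM1E read 70.4 ± 82.2 and 189.6 ± 61.4 TPM and was lower in wild-type EVs (0.0393). AC137932.1 in ANKRD11, a chromatin regulator gene, read 19.5 ± 42.8 and 96.1 ± 42.6 and was lower there too (0.0377). AC091153.2 in PELP1, a nuclear receptor coactivator gene, read 10.2 ± 30.5 and 142 ± 95.4 and was lower in ATG12-/- EVs (0.0274). The other 4, none of them called, had means in EVs and cells of 74.7 and 158 TPM for RF00017.46 in TRIM14, 70.8 and 90.9 for RN7SL376P in KNL1, 37.5 and 78.4 for AC005086.2 in CUX1, and 82.9 and 45.8 for AC138696.2 in ZNF696.

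**Figure D3:**
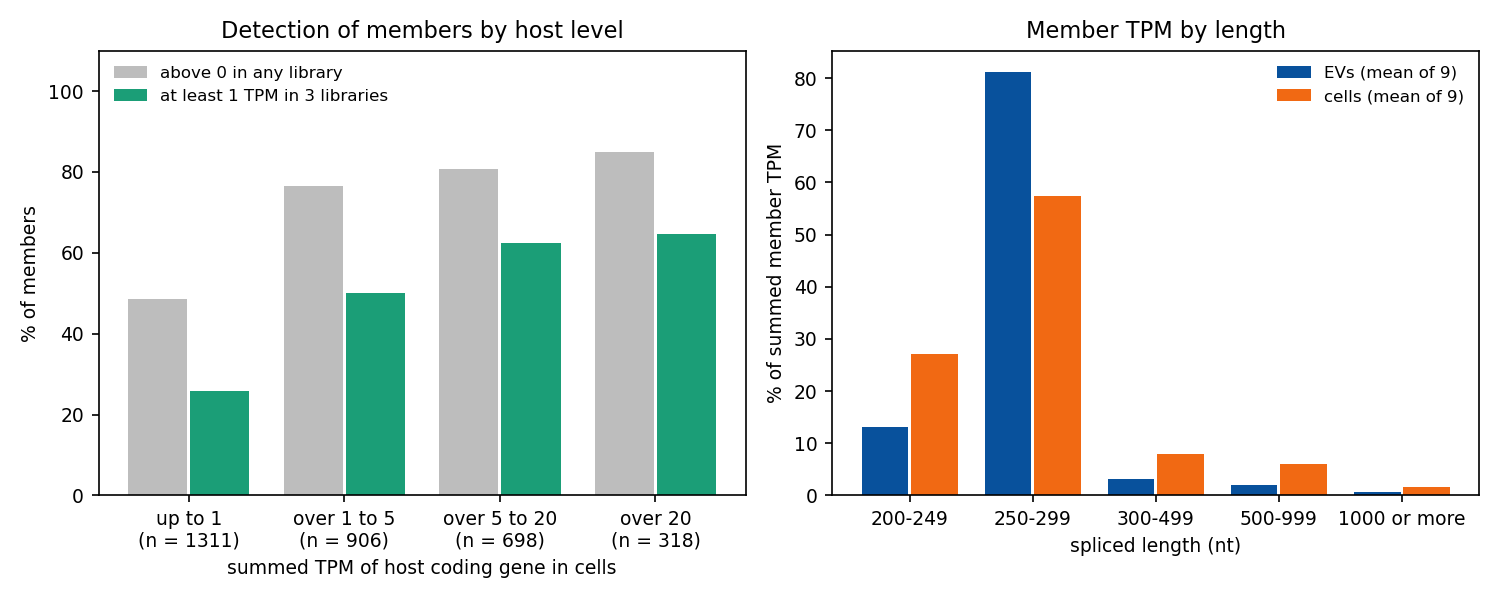
Left, percent of members (vertical axis) above 0 in any library (grey) and with at least 1 TPM in 3 libraries (green) by the summed TPM of the host in cells (horizontal axis); right, percent of summed member TPM (vertical axis) by spliced length (horizontal axis) in EVs and cells, each a mean of 9 libraries. The green bars go from 25.8% to 64.8%, and members of 250 to 299 nt, RN7SL1 and RN7SKP80 among them, hold 81.2% of the EV signal.

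Detection went with the summed level given to the host, which rests on the same unknown strand setting. Of 1311 members whose host was at or under 1 TPM in cells, 48.6% were above 0 in some library and 25.8% were tested. For 906 members with hosts over 1 and up to 5 TPM the shares were 76.5% and 50.0%, for 698 over 5 and up to 20 TPM 80.7% and 62.5%, and for 318 above 20 TPM 84.9% and 64.8%. Among the 1433 tested members the level of member and host were weakly related across members, with Spearman rho of 0.169 in cells and 0.0434 in EVs. The EV to cell differences of member and host had a rho of −0.0255. Members are not independent replicates, and no p is given.

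Placement within the host differed between the members seen and not seen. The 2517 members whose span lies in 1 intron sat in introns of 31055 nt (median), 4057 nt from the nearest host exon. For tested members the medians were 18239 and 2523 nt, and for those at 0 in all libraries 53041 and 7750 nt. The first intron held 16.7% of all, 16.3% of tested and 18% of undetected members. The other 717 cross a coding exon with an intron of their own. Hosts with many members contributed little. MYO3B, an unconventional myosin gene, has 73, of which 5 were tested, STARD13 44 (4 tested), DAB1 27 (1), CELF2 26 (4) and IWS1 24 (13). The 784 members of genes named as the antisense of another gene, 241 of them tested, summed to only 745.8 ± 223 TPM in EVs and 2041 ± 633 in cells.

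In the comparison of EVs with cells, more members were called lower than higher in EVs. In wild type 456 of 1433 (31.8%) were lower and 3 higher, against 13% and 2.58% of the 49499 transcripts tested. In ATG7-/- 132 (9.21%) were lower and 5 higher, against 4.09% and 1.47%. In ATG12-/- 124 (8.65%) were lower and 2 higher, against 4% and 1.04%. Median differences of members were −1.67, −1.05 and −0.99 in wild type, ATG7-/- and ATG12-/-, beside −0.50, −0.34 and −0.42 over all transcripts. The scaling of libraries moved the median of all transcripts by −0.12 in wild type and by −0.03 and 0.03 in the knockouts, and that of members from −1.51 unscaled to −1.67 in wild type. Members read only in cells had to differ once past the filter: 310, 88 and 100 of the lower calls were at 0 in all 3 EV libraries of their genotype. Among the 397 members that pass the filter in EVs and again in cells, 108 (27.2%), 30 (7.56%) and 36 (9.07%) were lower, beside 11.0%, 3.33% and 3.79% of 19603 transcripts. For same-strand intronic transcripts through both filters (218) the shares were 23.4%, 5.05% and 7.80%, and for those facing exons (2087) 13.2%, 3.55% and 5.41%.

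**Figure D4:**
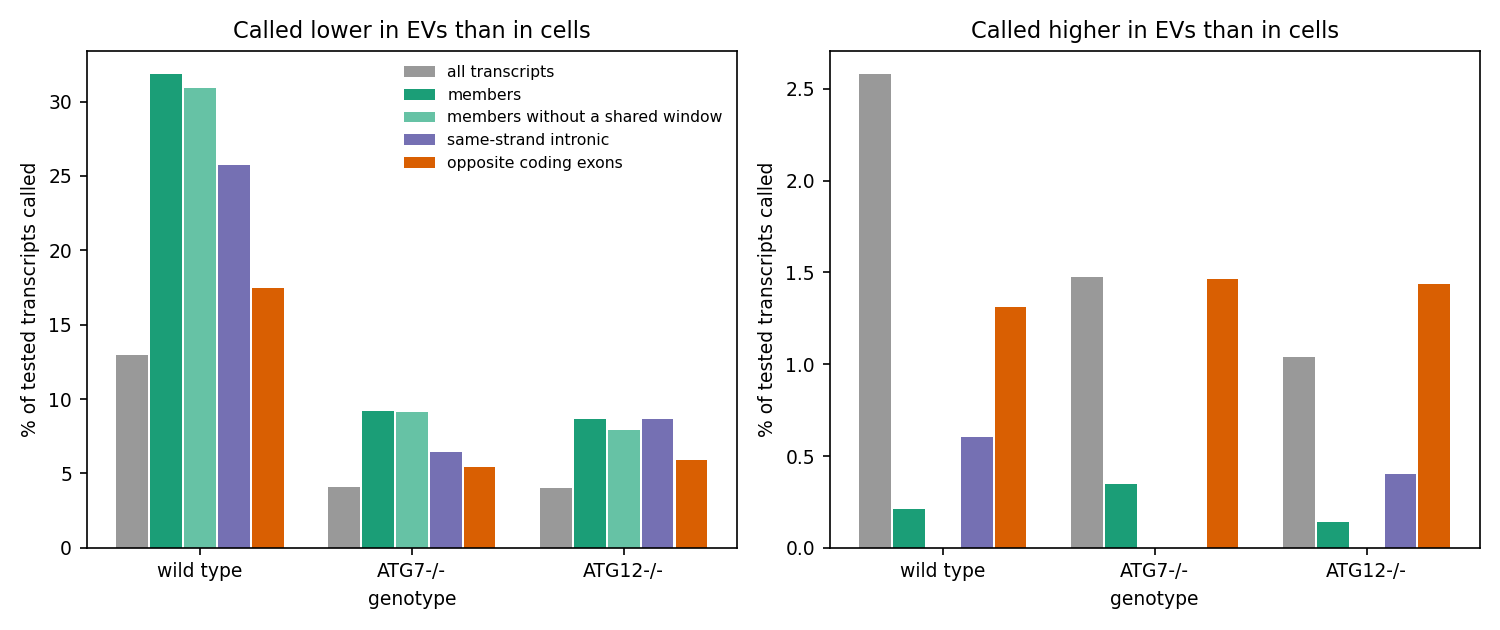
Percent of tested transcripts (vertical axes, from 0, on different scales) called lower (left) or higher (right) in EVs than in cells, by genotype (horizontal axis), for all transcripts, members, members without a shared window, same-strand intronic transcripts and those opposite coding exons. In wild type 31.8% of members were called lower beside 13% of all transcripts, and no member without a shared window was called higher in any genotype.

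In all 3 genotypes 37 of 1433 members (2.58%) were lower in EVs, beside 1.31% of all transcripts, 25 of them without a shared window, and 15 at 0 in all 9 EV libraries. AP001363.1, facing AHNAK, the gene of a very large scaffold protein, was at 0 in every EV library and read 71.7, 49.6 and 27.4 TPM in wild-type cells, 40.3, 42.7 and 68.0 in ATG7-/- and 27.8, 69.8 and 39.5 in ATG12-/-. Its limma adjusted p was 1.28e-06, 2.31e-06 and 4.34e-06. RN7SL182P, an SRP RNA copy facing QRICH1, a stress-response regulator, was at 0 in EVs and 21.3 ± 11.5 TPM in cells (n = 9), while QRICH1 itself read group means of 42.4 to 579 TPM in EVs. AC011442.1 in SMARCA4, the ATPase of a chromatin remodeller, was at 0 in EVs and 4.56 to 30.5 TPM in cells. AL137847.2 in FRMD3 was at 0 and 2.17 to 5.76 TPM. Values of 0 throughout EVs were thus found for SRP copies and for spliced antisense RNAs, and with unknown depth a 0 does not show that the RNA is absent.

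Members higher in EVs were 5: RN7SL1 in all genotypes, RN7SKP80 in wild type and ATG7-/-, and 3 others. AC004057.1, a pseudogene in ANK2 identical to the ribosomal protein gene RPS26 over its 348 nt, read 26.1, 61.5 and 22.6 TPM in wild-type EVs, 39.2, 31.6 and 49.2 in ATG7-/- EVs and 0 in all 6 of their cell libraries (limma adjusted p = 0.0259 and 0.0407). Its calls did not hold up to leaving out libraries: 2 of 6 and 0 of 6 kept an adjusted p under 0.05, with values up to 0.0751 and 0.104, and neither did without the filter on low values (0.0553 and 0.0893). RPS26 itself read 0.830 ± 1.04 TPM in EVs and 3.00 ± 2.25 in cells. ESRG, an embryonic stem cell-related transcript facing CACNA2D3, read 42.2, 40.6 and 39.9 TPM in ATG7-/- EVs against 13.3, 7.66 and 9.02 in the cells, and 39.1, 39.8 and 48.1 in ATG12-/- EVs against 14.3, 10.1 and 11.5. The differences were 1.87 and 1.75 log2 units (SE 0.34, limma adjusted p = 0.00532 and 0.00938). In wild type ESRG read 22.2, 21.1 and 29.1 against 21.8, 19.7 and 21.3. Set against wild type, its EV to cell difference was not called in ATG7-/- or ATG12-/- (limma adjusted p = 0.130 and 0.176). AL009031.1 in GMPR aligned to ESRG at 94.0% over 669 nt and was higher in ATG7-/- EVs (78.8, 102 and 73.7 TPM against 18.7, 14.8 and 19.0 in cells, adjusted p = 0.0247, and 0.0484 to 0.0733 without any 1 library). Set against wild type, that difference was not called either (limma adjusted p = 0.466).

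In EVs of the knockouts, few members were called. Of 406 tested, none was higher and 1 lower in ATG7-/-, against 0.121% and 0.0945% of all 26464 transcripts, and 1 was higher and none lower in ATG12-/-, against 0.136% and 0.166%. By limma at an unadjusted p under 0.05 there were 30 in each (7.39%), beside 6.55% and 7.11% of all transcripts, so the members' shares are near the background. Median differences were 0.04 and −0.14 beside −0.01 and −0.09 for all. The ATG7-/- and ATG12-/- comparisons share the wild-type libraries. The 1 lower was RN7SKP80, described above.

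**Figure D5:**
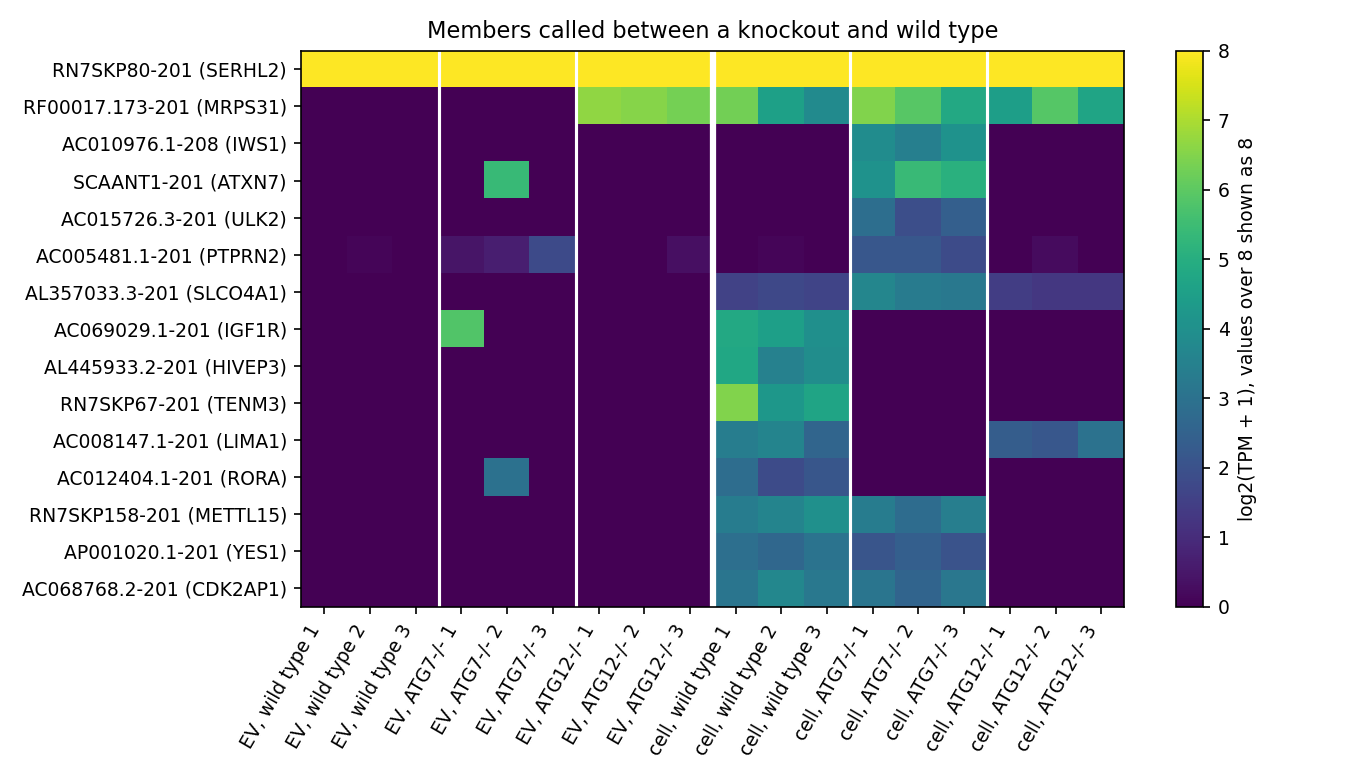
Log2(TPM + 1) as colour (values over 8 shown as 8) of the 15 members called between a knockout and wild type (rows, host gene in brackets) in the 18 libraries (columns); white lines divide groups. Most rows are dark, at 0, in whole groups; RF00017.173 is bright in ATG12-/- EVs (78.6 to 101 TPM) and dark in the other EVs, and RN7SKP80 is past the top of the scale throughout.

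RF00017.173, opposite an intron of MRPS31, the gene of a mitochondrial ribosomal protein, read 101, 92.0 and 78.6 TPM in ATG12-/- EVs and 0 in all 6 other EV libraries (limma adjusted p = 0.00742, and 0.0195 to 0.0328 without each of the ATG12-/- libraries). In cells it read 77.0, 22.2 and 13.2 in wild type, 88.5, 59.0 and 27.5 in ATG7-/- and 21.4, 58.9 and 24.5 in ATG12-/-. The groups overlap there. It passed the filter in EVs only through ATG12-/-, so it had to be higher there once tested, and its p gives no further support to that. MRPS31 read 2.16 TPM in ATG12-/- EVs and 4.96 in wild-type EVs.

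The next members did not pass in EVs. AC093525.4, facing PDPK1, the kinase that activates AKT, read 6.46, 12 and 16.7 TPM in ATG7-/- EVs and 0 in the other 6 EV libraries (limma adjusted p = 0.0543). AP002387.1, facing DHCR7, the enzyme of the last step of cholesterol synthesis, read 8.17, 18.7 and 6.87 against 0 (adjusted p = 0.0593). PCSK6-AS1, facing a proprotein convertase gene, read 0 in the 3 ATG7-/- libraries against 7.61, 16.3 and 18.6 in wild type (adjusted p = 0.108). For ATG12-/-, AC006064.1 in IFFO1 read 10.1, 12.2 and 17.2 against 0, 0.927 and 0 (adjusted p = 0.188). RN7SL693P in SLC27A5 read 0, 0 and 12.3 against 73.2, 60.6 and 239 (adjusted p = 0.0788, and 0.0227 to 0.234 without 1 library). AC007216.2, facing the translation termination factor gene GSPT1, read 0 against 104, 94.6 and 31.6 (adjusted p = 0.166). All 6 sat at or near 0 in the lower group, and AC093525.4 and AP002387.1 passed the filter only through ATG7-/-.

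In cells, 10 of 1369 tested members changed in ATG7-/-, 5 up and 5 down, against 0.182% and 0.18% of 36749 transcripts. In ATG12-/- none was higher and 7 were lower, against 0.128% and 0.0816%. At an unadjusted p under 0.05 limma gave 173 and 159 (12.6% and 11.6%), near the 11.5% and 11.8% of all transcripts. Members leaned lower in both: 972 and 1010 of 1369 were below 0, with medians of −0.39 and −0.39 beside −0.04 and −0.02 over all transcripts. Same-strand intronic transcripts had medians of −0.30 and −0.26 (457 tested), and those facing exons 0.07 and 0.02 (3049). Counts of members above 0 overlapped between groups, at 972 to 1299 in ATG7-/- cells, 1037 to 1337 in ATG12-/- and 1243 to 1443 in wild type. Over all transcripts they were 37301 to 45345, 41704 to 49040 and 39140 to 48182. The part of these counts in the medians was not tested. Among the called members, 8 of 10 and 7 of 7 were at 0 in a whole group, so that fold changes are not given for them. Of the same calls, 8 of 10 and 4 of 7 passed the filter only through the group where they are high (AC005481.1, AL445933.2, RN7SKP67, AC069029.1, AC012404.1, AC015726.3, SCAANT1 and AC010976.1). They had to differ in that direction, and their p-values give no further support to it. Without the filter on low values, AC005481.1, AC015726.3, AL357033.3, AC008147.1 and AC012404.1 missed the threshold in ATG7-/- cells (adjusted p = 0.132, 0.103, 0.103, 0.0501 and 0.151), and AC012404.1 in ATG12-/- cells (0.206, and 0.0551 without scaling).

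Members that rose in ATG7-/- cells were spread over 5 hosts. SCAANT1 read 15.9, 41.5 and 33.0 TPM against 0 in wild-type and ATG12-/- cells (limma adjusted p = 0.00204), and in ATG7-/- EVs 0, 41.3 and 0. Its host ATXN7 read 7.27 TPM in wild-type and 8.80 in ATG7-/- cells. AC010976.1, facing the elongation factor gene IWS1, read 13.8, 9.94 and 15.8 against 0 in every other library (adjusted p = 0.00125). AC015726.3, opposite an intron of ULK2, a kinase that starts autophagy, read 6.38, 2.77 and 4.41 against 0 in all 15 other libraries (adjusted p = 0.0237, and 0.0797 to 0.101 without 1 ATG7-/- library). ULK2 itself read 9.42 and 7.64 TPM in ATG7-/- and wild-type cells.

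AC005481.1, a transcript of 3456 nt opposite PTPRN2, a receptor phosphatase of secretory granules, read 3.47, 3.51 and 2.56 TPM against 0, 0.0891 and 0 in wild-type cells (adjusted p = 0.0244, and 0.0745 to 0.106 without 1 ATG7-/- library). AL357033.3, facing the organic anion transporter gene SLCO4A1, had values in all 9 cell libraries. They were 11.8, 8.98 and 8.18 TPM in ATG7-/-, 1.96, 2.35 and 2.13 in wild type and 1.71, 1.46 and 1.48 in ATG12-/-. It rose by 1.82 log2 units in ATG7-/- cells (SE 0.25, limma adjusted p = 0.031, and 0.0684 to 0.128 without any 1 of the 6). It was at 0 in every EV library. Its host read 0.138 TPM in wild-type cells and 0.826 in ATG7-/- cells.

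Members that fell in cells of both knockouts were 4 of 1369 (0.292%), beside 0.0571% of all transcripts, and both comparisons use the same wild-type cells, so a high wild-type value enters each. AC069029.1, facing the growth factor receptor gene IGF1R, read 27.2, 21.8 and 14.9 TPM in wild-type cells and 0 in all 6 knockout cell libraries (limma adjusted p = 0.000977 for ATG7-/- and 0.00107 for ATG12-/-). It read 55.9 TPM in 1 ATG7-/- EV library and 0 in the other 8 EV libraries. AL445933.2, facing the zinc-finger factor gene HIVEP3, read 26.2, 10.5 and 14.3 in wild-type cells and 0 in all other 15 libraries (adjusted p = 0.00265 and 0.00396). RN7SKP67, facing the teneurin gene TENM3, read 89.2, 17.8 and 24.3 and 0 in all others (adjusted p = 0.00856 and 0.00959, the latter 0.0585 to 0.0627 without 1 wild-type library). AC012404.1, facing the nuclear receptor gene RORA, read 6.29, 2.52 and 3.43 against 0 in knockout cells (adjusted p = 0.0317 and 0.0438, and from 0.0707 to 0.199 without 1 wild-type library). The hosts IGF1R, HIVEP3, TENM3 and RORA read 7.30, 0.303, 1.59 and 4.14 TPM in wild-type cells, and 7.48, 0.334, 1.45 and 4.10 in ATG7-/- cells.

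In ATG7-/- cells alone, AC008147.1, facing the actin-binding protein gene LIMA1, also fell. It read 9.38, 11.3 and 5.12 TPM in wild-type cells, 0 in ATG7-/- and 4.10, 3.51 and 7.08 in ATG12-/- (limma adjusted p = 0.0176, and 0.0243 to 0.0849 without 1 library). In ATG12-/- cells alone 3 more fell to 0. RN7SKP158, a 7SK copy facing METTL15, a mitochondrial rRNA methyltransferase gene, read 9.26, 11.1 and 15.2 in wild type and 9.32, 6.08 and 9.68 in ATG7-/- (adjusted p = 0.00396). AP001020.1, facing the SRC family kinase gene YES1 and with 90.1% of its windows found elsewhere on the reverse strand, read 6.64, 5.31 and 7.25, and 3.34, 4.36 and 3.18 (adjusted p = 0.00548). AC068768.2, facing CDK2AP1, a cell cycle regulator gene, read 7.59, 12.2 and 8.29, and 7.64, 4.98 and 7.94 (adjusted p = 0.00684). These 3 were at 0 in all EV libraries. Whether the knockouts differ from each other in these members was not tested. Among members not past the test in ATG12-/- cells, AL121655.1 in DPY30 read 5.24, 4.48 and 27.1 TPM and AC244153.1 in ARHGAP23 1.34, 3.68 and 2.34, both against 0 in wild type (adjusted p = 0.0892 and 0.0927).

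The EV to cell difference of a knockout was set against that of wild type over all 18 libraries. For ATG7-/- 5 of 1433 members were higher and 2 lower in this interaction, against 0.214% and 0.095% of transcripts, with a median of 0.64 beside 0.18. For ATG12-/- 8 were higher and 1 lower, against 0.166% and 0.129%, with a median of 0.63 beside 0.12. Same-strand intronic transcripts had medians of 0.49 and 0.39 for ATG7-/- and ATG12-/-, and those facing exons 0.29 and 0.27. Both interactions use the same wild-type libraries. AL445933.2, RN7SKP67 and AC006064.1 were called in both. As AL445933.2 and RN7SKP67 were above 0 only in wild-type cells, they had to be higher in both interactions once tested. RN7SKP80 was the only 1 called lower for ATG12-/-, by −2.77 log2 units (SE 0.55, adjusted p = 0.0493). That call held in 1 of 12 fits that each leave out 1 library, with adjusted p from 0.00322 to 0.144. AL356737.1 had an interaction of 1.02 (SE 0.16, adjusted p = 0.0131) in ATG12-/- and kept it in 12 of 12. It missed the threshold without the filter on low values (adjusted p = 0.0694), without scaling (0.67 log2 units, 0.192) and with sample weights in place of the trend (0.513). RN7SKP80 also missed it without the filter (0.122) and with sample weights (0.219).

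Of 17 genes of the LC3 conjugation machinery, 4 hold members, and none of these members was called between a knockout and wild type. ATG10-AS1, opposite ATG10, the enzyme that joins ATG12 to ATG5, was at 0 in all EV libraries. It read 1.79, 1.43 and 0.976 TPM in wild-type cells, 0.900, 1.17 and 0 in ATG7-/- and 0.783, 0.669 and 0 in ATG12-/-. It was lower in wild-type EVs than in their cells (limma adjusted p = 0.00974), while its host had group means of 1825 to 2733 TPM in EVs and 671 to 780.2 in cells. If strand had been set the other way, that sum would count RNA from across the exons of ATG10 and not ATG10 mRNA, and this was not tested. AC010531.3, facing MAP1LC3B, an LC3 gene, read 11.2, 0 and 16.9 TPM in wild-type EVs, 1.21, 19.2 and 15.2 in ATG7-/- EVs and 0 in all 3 of ATG12-/-. AC025287.3, facing GABARAPL2, a gene of the same family, read 0 to 9.79 TPM in EVs and 0 to 6.20 in cells. The member in ATG5, AL022067.1, was too low to test. Of 21 vesicle genes, LARP1, an RNA-binding protein gene, holds the only member, RN7SL803P, which was also too low to test.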

How the data were processed

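Total RNA of EVs and cells, called large RNA in the sample titles, was measured in 18 libraries (6 groups of 3). The authors deposited TPM per transcript. Salmon 0.14 and DESeq2 are named, without a role, in the submitters' processing notes. The strand setting, build and annotation were not given in any source used here. Because TPM hold no depth, no count test was run and no interval on depth is given. Of 203027 transcript IDs, 202941 matched GENCODE 29 (GRCh38) without version and 86 did not, at most 0.0384% of a library.

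TPM were scaled by median ratios, put on a log2 scale with a pseudocount of 1 and fitted with limma 3.58.1 (R 4.3.3; trend, Benjamini-Hochberg over all transcripts tested, threshold 0.05) for transcripts of at least 1 TPM in at least 3 fitted libraries. Knockout comparisons used 9 EV or 9 cell libraries, all others 18. The fit was tested on simulated data with 200 changes of 1, 2 or 3 log2 units. In ATG7-/- EVs 2, 5 and 47 were recovered, with 0, 0 and 3 false calls. In ATG7-/- cells 0, 84 and 123 were recovered, with 0, 15 and 13 false calls. For wild-type EVs against cells 0, 19 and 61 were recovered, with 0, 4 and 6 false calls. Most changes made in EVs were thus missed. Alignments used BLAST+ 2.17.0.

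Named members are the 12 of highest mean TPM, the called members of each comparison (up to 10 a direction by p; where under 3 were called, the 2 of smallest p), those in hosts of the 2 gene lists, and the 3 on each side of the length limit. Members, lists and alternatives were chosen with earlier results of these data known. Some sequences of members are not reported here. The comparison with facing coding genes and the list of unshared members were added after seeing the data. Alternatives were a pseudocount of 0.5, no filter, no scaling, sample weights, a replicate block, a length limit of 300 nt and leaving out each replicate.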

Additional observations from a re-analysis of the deposited data

Results flagged for a closer look

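In 16 cases the EV to cell difference of a knockout departed from that of wild type by the interaction test (limma, adjusted p). For ATG12-/- these were AL445933.2 (0.000445), RN7SKP158 (0.00114), RN7SKP67 (0.00116), AC068768.2 (0.00226), RF00017.173 (0.00226), AP001020.1 (0.00277), AL356737.1 (1.02 log2 units, 0.0131), AC006064.1 (0.0376) and RN7SKP80 (−2.77 log2 units, 0.0493). For ATG7-/- they were AC010976.1 (0.000234), AL445933.2 (0.000416), RN7SKP67 (0.00116), AC008147.1 (0.00511), AC015726.3 (0.00887), AC093525.4 (0.0133) and AC006064.1 (0.021). Sizes are given only for members with no group at or near 0, since the pseudocount sets the others.

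AL445933.2, RN7SKP67, RN7SKP158, AC068768.2, AP001020.1, AC008147.1, AC010976.1 and AC015726.3 were at 0 in all 9 EV libraries, so their interactions are differences between cells. Of these, AL445933.2 and RN7SKP67 passed the filter only through wild-type cells, and AC010976.1 and AC015726.3 only through ATG7-/- cells. Their interactions had to lie in the direction seen, and their p-values give no further support to it. RF00017.173 and AC093525.4 were at 0 in the EVs of the other genotypes. AC006064.1, facing IFFO1, read 0, 0.927 and 0 TPM in wild-type EVs, 26.9, 47.3 and 5.99 in ATG7-/- and 10.1, 12.2 and 17.2 in ATG12-/-, against 30.9 to 56.9 in cells. Without any 1 of 12 libraries its adjusted p ran from 0.00152 to 0.0727 for ATG7-/- and from 0.0323 to 0.117 for ATG12-/-, and for ATG12-/- it was 0.0779 without the filter on low values and 0.0546 without scaling. AC015726.3 was at 0.0515 without the filter and 0.0586 with sample weights. RN7SKP80 and AL356737.1 had values in every library.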

How the results depend on the processing

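Most calls kept their direction under all alternatives: of 75 calls on named members, 53 kept an adjusted p under 0.05 in each alternative, and none reversed. Over those alternatives the calls stayed past the threshold 741 times and missed it 108 times. Differences that had missed it stayed so 83 times and passed 7 times.

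Counts of called members moved past 1.5 times as follows. For ATG7-/- EVs, 1 became 3 with a pseudocount of 0.5, 2 with sample weights and no trend, and 0 without the filter on low values or without members that share a window (an alternative chosen after seeing the data). Without the filter, ATG7-/- cells gave 5, and EVs against cells 80 for ATG7-/- and 58 for ATG12-/-. Keeping only members without a shared window gave 80 for ATG12-/- EVs against cells and 5 in the ATG12-/- interaction, from fewer members. Keeping only members in 1 intron (also added) gave 4 in the ATG7-/- interaction.

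Whether the replicate numbers pair the samples is not settled. Correlations of same-numbered deviations were small, from −0.0302 to 0.017 between a knockout and wild type. Between EVs and cells of the same genotype they ran from 0.00133 to 0.0187, all above 0. Most EV libraries, though not every one, were nearest the cell library of their own number. With the replicate block the calls were 0 and 0 in ATG7-/- and ATG12-/- EVs and 4 and 1 in cells. For EVs against cells they were 446, 119 and 102 in wild type, ATG7-/- and ATG12-/-, and for the interactions 7 and 7. The block ties a number across all groups, and a pairing of EVs with cells within a genotype was not tested.

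Leaving out 1 replicate at a time gave 0 to 0 calls in ATG7-/- EVs, 0 to 2 in ATG12-/- EVs, 2 to 12 and 3 to 6 in ATG7-/- and ATG12-/- cells, 383 to 428, 67 to 122 and 53 to 79 in EVs against cells of wild type, ATG7-/- and ATG12-/-, and 5 to 12 and 5 to 13 in the interactions. Fewer libraries were fitted in each.

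The summed level was 44478.5 TPM in EVs and 53086 in cells without RN7SL1, 4549 and 10059.8 with a limit of 300 nt, 44456 and 52913 without members that share an exon base with another noncoding gene, and 3398 and 7521 without shared windows. EVs were above cells with RN7SL1 and below them without it. Leaving out 1 library gave 78536 to 82401 and 62841 to 66079. Depth is unknown, so a 0 cannot be given an upper limit.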
